A study of Mus musculus with 8 samples.

Results

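The Spata (spermatogenesis associated) and Tex (testis expressed) genes were followed in mouse testis through the first wave of spermatogenesis. They were taken as every gene in the table whose symbol starts with Spata or Tex and a digit, leaving out Spata22, Tex11 and Tex12. This gave 54 of 23983 genes, 27 named Spata and 27 named Tex. The study sequenced total RNA from testes of wild-type C57BL/6J mice at 12, 16 and 24 days post partum (d12, d16 and d24) and from adult testes. The 4 groups share genotype and tissue, carry no treatment and hold 1 RNA library each. The labels name whole testis as the tissue, and the methods a piece of testis for the RNA. The age of the adult mice and the number of pooled animals are not given in the labels. The series also holds ChIP-seq samples for H3K27Ac at these ages, which were not analysed here.

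Both names collect genes by where their RNA was found or by a testis phenotype, so the members do not form a single protein family. In the first wave, spermatogonia enter meiosis, pass through the long pachytene stage as spermatocytes, divide to round spermatids and are then remodelled into elongating spermatids and sperm. Sperm heads, tails, mitochondrial sheaths and acrosomes are built in these last steps from many gene products found in few other tissues. Other genes that carry a Spata or Tex name work in many cell types, in ribosome assembly, the endoplasmic reticulum or cilia.

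The values are FPKM, fragments per kilobase of transcript after a scaling between libraries, so that levels are per transcript length. With 1 library at each stage there was no spread between animals and no test, so changes are described by size. Steps between neighbouring stages are given as differences of log2(FPKM + 1), a scale that understates the change of genes at low level, and a gene was counted as higher or lower from a fold of 2 on it. Neighbouring steps share a library and are not independent of each other. In bulk testis RNA, fewer cells of a type and less RNA per cell cannot be told apart. In genes with 1 curated transcript, most low values were whole multiples of the value of a single fragment. From this value and mean transcript lengths, 9322284 fragments on genes were estimated at d12. The estimates were 9913624, 24966865 and 12731942 at the later stages in order of age. A fragment on a transcript of 1 kb was worth 0.0799 FPKM at d12 and 0.112 FPKM in the adult. The adult value was the larger although more fragments were estimated there, so the scaling did not follow the fragment number alone. For 37 of the 54 members the fragment number behind each value could be recovered, and 95% intervals (exact Poisson for a level, exact Clopper-Pearson for a ratio) are given for these. They cover counting error only.

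The labelled tissue was checked with 6 marker genes for each of 7 cell classes. The summed level of the Sertoli cell markers was 792.0 FPKM at d12 and 491.6 FPKM in the adult, with Amh listed at 0 in the adult. Clu alone made up 706.7 and 456.6 FPKM of these sums, and 5 of the 6 markers were highest at d12. The 6 spermatogonial markers summed to 289.0, 169.4, 86.8 and 62.1 FPKM from d12 to the adult, though Gfra1 was highest in the adult (2.41 FPKM). The 6 early meiotic markers summed to 882.3, 1747, 1137 and 1075 FPKM. Of these, 4 were highest at d16, Dmc1 at d12 (45.7 FPKM) and Spo11 in the adult (23.5 FPKM). The 6 pachytene markers summed to 61.9, 995.2, 4432 and 5311 FPKM from d12 to the adult, with Piwil1 and Clgn highest at d24. The 6 round spermatid markers summed to 4.09, 13.9, 425.2 and 1232 FPKM, and the 6 elongating spermatid markers to 13.2, 4.45, 2363 and 26392 FPKM. The 6 Leydig cell markers summed to 131.6, 82.4, 153.4 and 580.7 FPKM. Of these, 5 were highest in the adult, led by Insl3 at 272.8 FPKM, and Star was highest at d12. These cell classes move with the stages, and their part in the members' values was not tested.

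The largest paralog set among the members is the Spata31 family on chromosome 13, with Spata31, Spata31d1a, Spata31d1b, Spata31d1c and Spata31d1d. The sequences just before the transcription start of 3 of them are shown because these related genes went from near 0 to their adult level over the same steps, and because they share a stretch of 10 bases, in capitals. Each is 100 bases long and ends at the last base before the start, given 5′ to 3′ on the strand of the gene, from RefSeq in build GRCm38.p6.
Spata31d1b, chr13:59712184-59712283, plus strand: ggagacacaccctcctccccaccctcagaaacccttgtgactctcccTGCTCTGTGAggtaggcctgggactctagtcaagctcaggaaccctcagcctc
Spata31d1c, chr13:65032958-65033057, plus strand: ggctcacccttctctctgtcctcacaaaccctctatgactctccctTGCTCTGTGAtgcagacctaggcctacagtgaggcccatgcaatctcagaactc
Spata31d1d, chr13:59731753-59731852, minus strand: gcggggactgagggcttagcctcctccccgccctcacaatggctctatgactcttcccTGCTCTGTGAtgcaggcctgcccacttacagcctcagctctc
The stretch begins 53, 54 and 42 bases before the start, in that order, and the window of Spata31d1a holds it too. It was found by comparing these windows, and either strand of it occurs in 105 of 32851 promoter windows (0.320%), each running from 250 bases before to 50 bases after a start. Among the 56 windows of the 47 members with a window, it occurs in these 4. It is absent from that of Spata31, which also went from near 0 to its adult level over the same steps. Spata31d1a, which holds it, already stood at 1.40 FPKM at d16. Whether the stretch bears on the course of these genes was not tested. Over the aligned bases, the windows of Spata31d1a and Spata31d1b were 95.7% identical, and the other pairs of the 4 were 70.3% to 78.6% identical.

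Adult testis was the stage of the highest FPKM for 41 of the 54 members (75.9%), against 23.4% of all genes. The other stages held 7 members at d12 (all genes 22.5%), 2 at d16 (3.70%, all genes 6.64%) and 2 at d24 (3.70%, all genes 11%). Spata5l1 and Tex28 stayed under 1 FPKM at all 4 stages and were counted apart. The adult was highest for 23 of 27 Spata genes and 18 of 27 Tex genes, and d16 or d24 was highest for 4 Tex genes and no Spata gene. For 14 members the second highest stage reached at least 80% of the highest, so that the order of those stages rests on small differences. Of these 14, Tex10, Tex261, Tex264, Tex40 and Tex9 were highest in the adult.

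**Figure D1:**
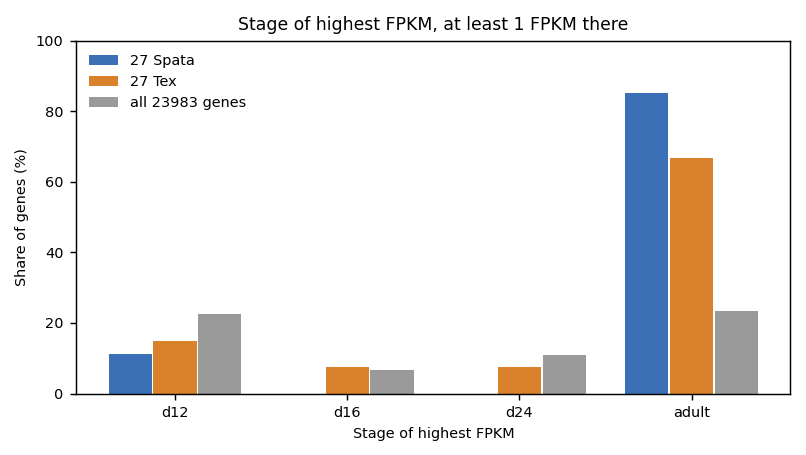
Share of genes (%, from 0 to 100) by the stage of their highest FPKM, for the 27 Spata genes, the 27 Tex genes and all 23983 genes, counting genes with at least 1 FPKM there. The adult bars stand at 85.2% for Spata, 66.7% for Tex and 23.4% for all genes.

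From d12 to the adult, the summed level of the 54 members was 595.0, 1176, 5658 and 12015 FPKM. This was 0.210%, 0.382%, 1.20% and 1.82% of the FPKM sum of each library. The median member stood at 0.423, 1.26, 44.1 and 84.4 FPKM, while the median of all genes stood between 1.16 and 1.95 FPKM. Members with at least 100 FPKM numbered 2, 3, 13 and 24 of the 54 over the 4 stages. Among all 23983 genes the numbers were 409, 470, 973 and 1374, so they grew over the whole set too. In the adult, 22 members (40.7%) were among the 1000 highest genes, which make up 4.17% of the table. The members over 100 FPKM at d12 were Spata5 and Tex15, neither of which was higher past a fold of 2 at a later step.

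**Figure D2:**
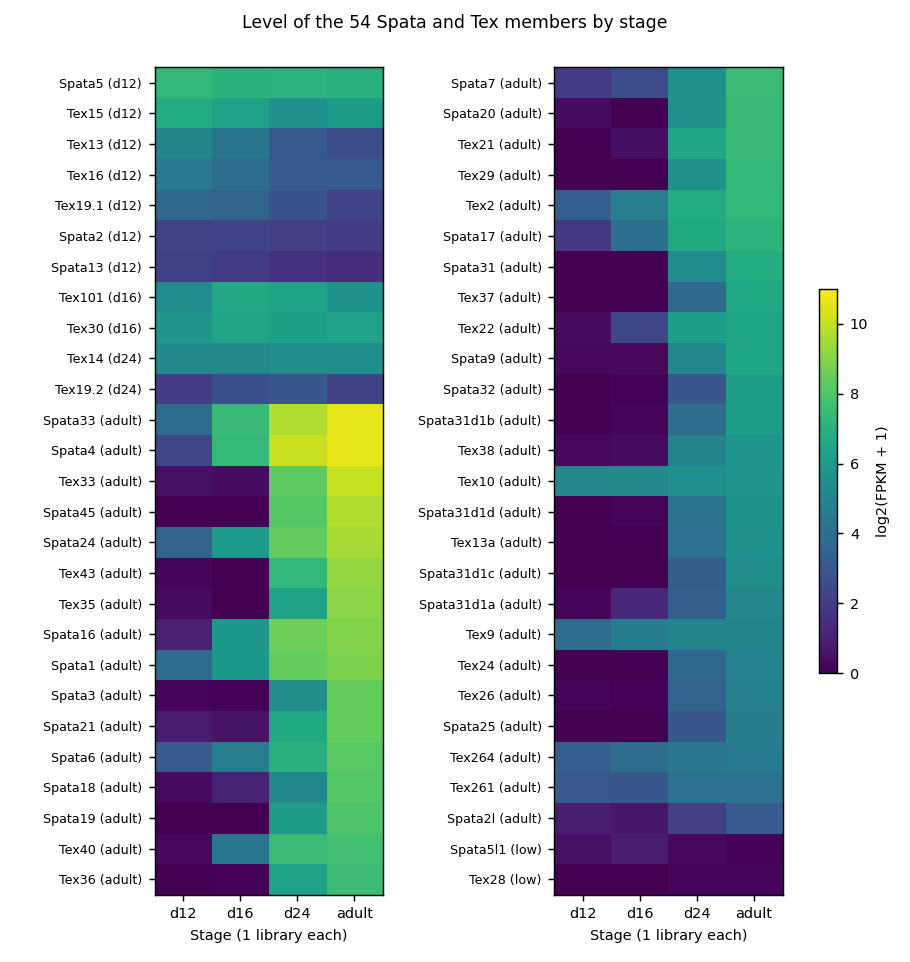
Level of each of the 54 members as log2(FPKM + 1), by colour, at the 4 stages with 1 library each, grouped by the stage of the highest FPKM given in brackets. Tex13, Tex16 and Tex19.1, highest at d12, darken from left to right, and most of those highest in the adult go from near 0 to values above 4.

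The step from d16 to d24 moved most members. Of the 54, 38 were higher at d24 than at d16 (70.4%, all genes 14.8%) and Tex13 alone was lower (1.85%, all genes 2.44%). From d12 to d16, 12 were higher (22.2%, all genes 5.15%) and 0 lower (all genes 0.675%). From d24 to the adult, 27 were higher (50%, all genes 6.14%) and 0 lower (all genes 0.292%). The median difference of log2(FPKM + 1) over the members was 0.04, 2.81 and 1.00 for the 3 steps in order of age. For the 13901 genes that averaged 1 FPKM or more it was 0.00, 0.11 and -0.02.

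Spata genes outnumbered Tex genes among the members counted as higher. They made up 8 of the 12 members higher at d16, 23 of the 38 higher at d24 and 18 of the 27 higher in the adult. Their median differences were 0.10, 2.91 and 1.45, against 0.00, 2.05 and 0.34 for Tex. The level increased, by any amount, at each of the 3 steps for 24 members (44.4%, all genes 14.1%), and it decreased at each step for Spata13, Spata2, Tex13 and Tex19.1.

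**Figure D3:**
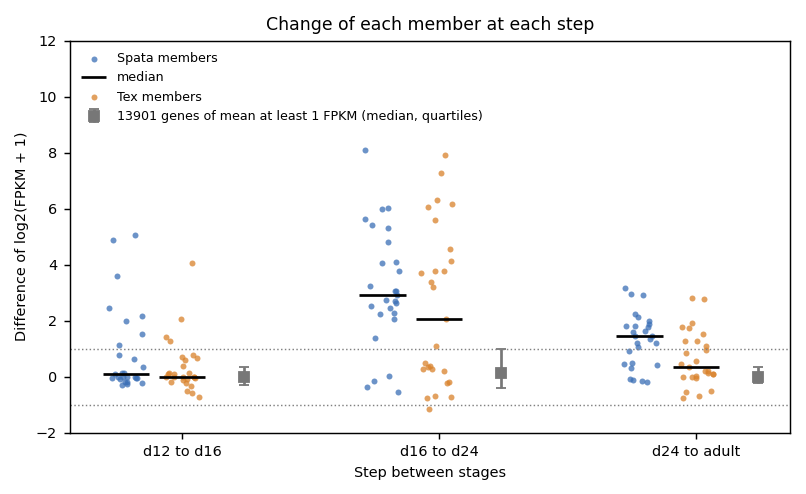
Difference of log2(FPKM + 1) at each step between neighbouring stages, with a point for each of the 27 Spata and 27 Tex genes, bars at their medians, and the median and quartiles of the 13901 genes averaging 1 FPKM or more in grey. Dotted lines mark a fold of 2, and the Spata median is at 2.91 and the Tex median at 2.05 for the step from d16 to d24.

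Rescaling the libraries moved the split of all genes more than that of the members. When every library was set to an equal FPKM sum, the share of higher among all called genes went from 88.4% to 64.5%, from 85.8% to 40.2% and from 95.5% to 53.7% for the 3 steps. With the upper quartile it went to 74.6%, 55.0% and 92.7%. The members then split into 13 higher and 0 lower, 37 and 5, and 18 and 3 with the equal sum, and into 12 and 0, 37 and 4, and 25 and 0 with the upper quartile. The lower ones at d24 were Tex13, Tex15, Tex16 and Tex19.1 under both, with Spata5l1 under the equal sum, and those in the adult were Tex101, Tex19.1 and Tex19.2.

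The members fell into 3 main sets by the first stage at which they reached 2 FPKM. At d12, 23 members had reached it (42.6%, all genes 44.9%). At d16, Spata16, Tex22 and Tex40 were added (5.56%, all genes 3.55%), and at d24 another 26 (48.1%, all genes 6.3%). No member reached 2 FPKM first in the adult (all genes 1.98%), and Spata5l1 and Tex28 never did (3.70%, all genes 43.3%). The median levels of the 26 members that first reached 2 FPKM at d24 were 0.0461, 0.0721, 34.2 and 101.0 FPKM. Their adult level was between 1.81 and 10.2 times the d24 level. For comparison, 3 fragments on a transcript of 1 kb correspond to 0.240 FPKM at d12 and d16. The highest of the 26 before d24 were Spata31d1a at 1.40 FPKM and Spata18 at 1.11 FPKM, both at d16, and Spata2l at 0.872 FPKM at d12. Of the 26, 10 were higher at d12 than at d16, 10 lower, and 6 were at 0 in both libraries.

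The 12 members higher at d16 than at d12 included the most abundant Spata genes. Spata4 (chromosome 8, 54600781 to 54610098, plus strand, 6 exons) stood at 4.00, 165.6, 1096.7 and 1547.5 FPKM in order of age, as in all such series of 4 values below. Its level increased 41.4-fold (95% interval 31.5 to 55.4, from 53 to 2187 fragments) by d16, 6.62-fold (6.34 to 6.92) by d24 and 1.41-fold (1.38 to 1.44) to the adult. It ranked 23rd of all genes at d24 and 29th in the adult. Spata33 (chromosome 8, 123212858 to 123222045, plus strand, 3 exons), which links calcineurin to mitochondria in the sperm midpiece, stood at 13.6, 172.8, 819.6 and 1547.9 FPKM. It increased 12.7-fold (from 88 to 1118 fragments), 4.74-fold (4.46 to 5.05) and 1.89-fold (1.83 to 1.95) over the 3 steps, and its adult level differed from that of Spata4 by less than the counting error. The size of the adult step rests on the scaling between libraries. With the equal sum it went from 0.50 to 0.02 for Spata4 and from 0.92 to 0.44 for Spata33 in log2(FPKM + 1).

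Spata16, a Golgi protein needed to form the acrosome, stood at 0.974, 57.5, 380.0 and 475.5 FPKM, a difference of 4.89 in log2(FPKM + 1) at d16. Tex40, the symbol in the table for Catsperz, is a subunit of the CatSper calcium channel of the sperm tail. It stood at 0.204, 18.8, 180.1 and 209.2 FPKM, and its 92.2-fold increase by d16 has a wide interval (25.2 to 767) because 2 fragments were behind the d12 value. Its later increases were 9.56-fold (8.23 to 11.1) and 1.16-fold (1.09 to 1.24). Tex22, the remaining gene that first reached 2 FPKM at d16, stood at 0.252, 4.17, 70.2 and 89.0 FPKM. These 3 genes were at 5.94% to 15.1% of their d24 level at d16, and their adult level was 1.16 to 1.27 times that at d24. This adult step rests on the scaling, since with the equal sum all 3 were highest at d24. In log2(FPKM + 1) the step then went from 0.32 to -0.16 for Spata16 and from 0.34 to -0.14 for Tex22.

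Spata24, among the 6 highest members in the adult, stood at 10.2, 59.7, 327.5 and 754.4 FPKM, with increases of 5.85-fold (4.67 to 7.41), 5.49-fold (5.02 to 6.02) and 2.30-fold (2.21 to 2.40). Spata6, which builds the connecting piece between sperm head and tail, stood at 8.19, 25.4, 124.8 and 290.5 FPKM. Both were higher at each of the 3 steps past a fold of 2, but with the equal sum the adult step went from 1.20 to 0.72 for Spata24 and from 1.21 to 0.74 for Spata6 in log2(FPKM + 1). Spata1 stood at 13.9, 57.7, 336.8 and 448.2 FPKM, and Spata17, which carries calmodulin-binding IQ motifs, at 2.67, 15.3, 100.9 and 137.7 FPKM. These 2 passed the fold at the first 2 steps and not at the last.

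The largest differences of all were at d24, in genes with few or no fragments before. Spata45 was listed at 0 at d12 and d16 and stood at 269.5 FPKM at d24 and 823.8 FPKM in the adult, a difference of 8.08 in log2(FPKM + 1) at d24. Tex33 stood at 0.424, 0.298, 311.9 and 1069.6 FPKM (7.91 at d24) and was the 46th highest gene of the adult library. Tex43 stood at 0.142, 0, 154.9 and 590.7 FPKM (7.28), at least 364-fold higher at d24 than the level of 3 fragments at d16. Tex35 stood at 0.267, 0, 78.3 and 539.1 FPKM (6.31), and Tex36 at 0, 0.0874, 77.0 and 185.9 FPKM (6.16).

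None of these 5 genes had more than 0.5 FPKM in either early library, and each was higher again in the adult past a fold of 2, which Tex36 did not pass with the equal sum (0.79 from 1.26). In the same 2 early libraries 7 members were at 0 in both, namely Spata19, Spata25, Spata45, Tex13a, Tex28, Tex29 and Tex37. The share of all genes at 0 in both is not given here, so the 7 cannot be set against it. Spata19, a mitochondrial protein of the sperm midpiece, stood at 62.8 FPKM at d24 and 252.5 FPKM in the adult. This is at least 179-fold over 3 fragments at d16, then 4.02-fold (3.70 to 4.36). Tex29 reached 47.3 and 160.8 FPKM, at least 153-fold and then 3.40-fold (3.10 to 3.72). Spata20 stood at 0.278 and 0.0309 FPKM, on 9 fragments and 1, in the early libraries before it reached 49.9 and 176.0 FPKM, a ratio of 1615 at d24 with an interval from 290 to 63797. Another 6 members that first reached 2 FPKM at d24 were Spata9, Spata21, Spata25, Tex21, Tex24 and Tex26. They stood between 7.27 and 96.0 FPKM at d24 and between 24.6 and 339.1 FPKM in the adult.

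The largest differences at the step to the adult were in Spata32, Spata18, Spata3, Tex37 and again Tex35. Spata32 stood at 0, 0.0719, 7.04 and 71.7 FPKM and was 10.2-fold (8.61 to 12.1) higher in the adult than at d24. Spata18, also known as Mieap, a protein of mitochondrial quality control, stood at 0.246, 1.11, 34.6 and 273.4 FPKM and was 7.90-fold (7.45 to 8.38) higher. Tex37 stood at 0, 0, 12.6 and 93.7 FPKM, 7.41-fold (6.37 to 8.68) higher. Spata3 stood at 0.145, 0.0723, 44.2 and 340.3 FPKM, a ratio of 7.70, and the ratio for Tex35 was 6.89. The intervals of Spata32, Spata18 and Tex37 lie above those of Spata4, Spata33 and Tex40 for the same step. The former were named for their large differences at this step, so this order follows from the choice.

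**Figure D4:**
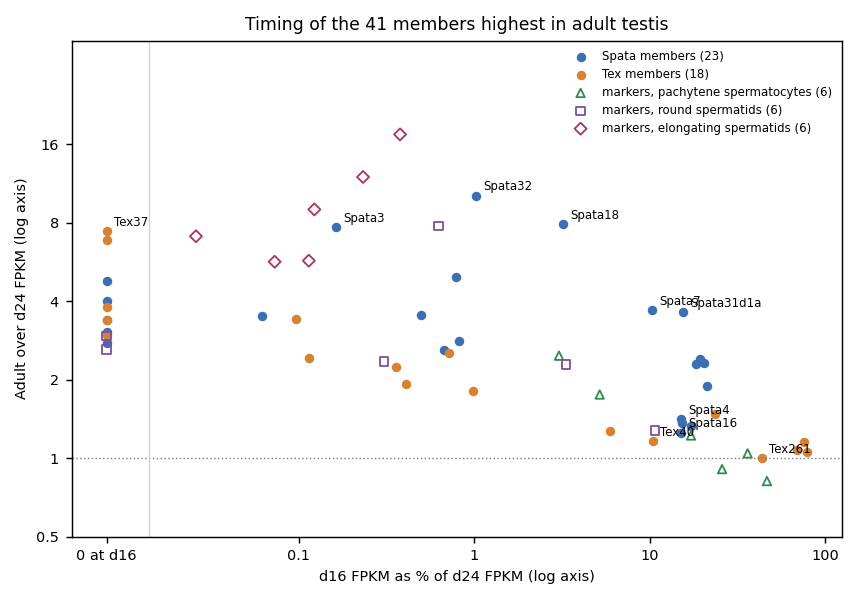
Adult over d24 FPKM against the d16 level as % of the d24 level, both on log axes, for the 41 members highest in the adult and for 6 markers each of pachytene spermatocytes, round spermatids and elongating spermatids; genes at 0 at d16 are set apart on the left. Members range from 1.00 (Tex261) to 10.2 (Spata32) on the vertical axis, and Spata7 and Spata31d1a stand above the other members whose d16 level was over 10% of d24.

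Set beside the marker genes, the 41 members highest in the adult covered a wide range of timing. Their median adult level was 2.61 times the d24 level, with 27 at 2-fold or more, 8 at 4-fold or more and 11 under 1.5-fold. Their median d16 level was 0.818% of the d24 level. The 6 pachytene markers had medians of 1.13 and 21.5% for these measures, the 6 round spermatid markers 2.48 and 0.464%, and the 6 elongating spermatid markers 8.06 and 0.118%. Both values were within the ranges of the pachytene markers (3.04% to 46.5% at d16, adult 0.816 to 2.47 times d24) for 12 of the 41, namely Spata1, Spata16, Spata17, Spata24, Spata2l, Spata33, Spata4, Spata6, Tex2, Tex22, Tex261 and Tex40. The share of all genes within these ranges is not given here, so the 12 cannot be set against it. All 6 pachytene markers were higher at d16 than at d12. Tex261 (7.36 and 7.15 FPKM) and Spata2l (0.872 and 0.639 FPKM) were not. Over the 5586 genes of the table that were highest in the adult and above 0 at d24, the median ratio of adult to d24 was 1.51.

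The 4 genes of genome defence and cell bridges were present from d12 and none passed a fold of 2 at any step as deposited. After rescaling, Tex15 and Tex19.1 were lower past this fold at d24 with the equal sum and with the upper quartile. Tex19.1 and Tex19.2 were lower past it in the adult with the equal sum. Tex14, needed for the bridges that join germ cells, stood at 34.7, 36.7, 44.0 and 42.1 FPKM, and the adult was 0.956 times d24 (0.905 to 1.01). Tex15, which acts in transposon silencing in male germ cells, stood at 109.2, 76.9, 46.2 and 62.7 FPKM. It was 1.42-fold (1.38 to 1.46) lower at d16 than at d12, 1.66-fold (1.61 to 1.72) lower at d24 than at d16 and 1.36-fold (1.31 to 1.41) higher in the adult than at d24. With the equal sum this last step of Tex15 went from 0.43 to -0.04 in log2(FPKM + 1). The median differences of the 4 genes were -0.08, -0.22 and -0.31 in log2(FPKM + 1).

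Tex19.1 and Tex19.2, rodent paralogs on chromosome 11 of which Tex19.1 restrains transposons, had different courses. Tex19.1 stood at 12.2, 10.2, 5.89 and 3.68 FPKM and Tex19.2 at 3.04, 5.47, 6.81 and 3.56 FPKM. From d12 to d16 the ratio was 0.832 (0.693 to 0.999) for Tex19.1 and 1.80 (1.35 to 2.40) for Tex19.2, intervals that do not overlap. From d24 to the adult both were lower, 1.60-fold (1.19 to 2.18) and 1.91-fold (1.46 to 2.54), with intervals that overlap. Their transcripts were 81.9% identical over 57.2% of Tex19.1, and 2.96% of the 50-base stretches of Tex19.1 and 2.50% of those of Tex19.2 occur in the other gene.

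The 4 X-linked members, Tex13, Tex13a, Tex16 and Tex28, had unlike courses. Tex13, listed in current RefSeq as Tex13b, stood at 30.9, 18.3, 7.72 and 5.14 FPKM and was 2.37-fold (2.07 to 2.73) lower at d24 than at d16, a difference of -1.15 in log2(FPKM + 1). Its relative Tex13a was at 0 at d12 and d16 and stood at 16.7 and 49.6 FPKM later, at least 92.0-fold over 3 fragments at d16 and then 2.97-fold (2.63 to 3.36). Tex16 stood at 21.3, 13.7, 7.67 and 7.71 FPKM, 1.56-fold (1.41 to 1.71) lower at d16 and 1.79-fold (1.61 to 1.99) lower at d24. Tex28 had 0, 0, 5 and 2 fragments and could not be followed at this depth.

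**Figure D5:**
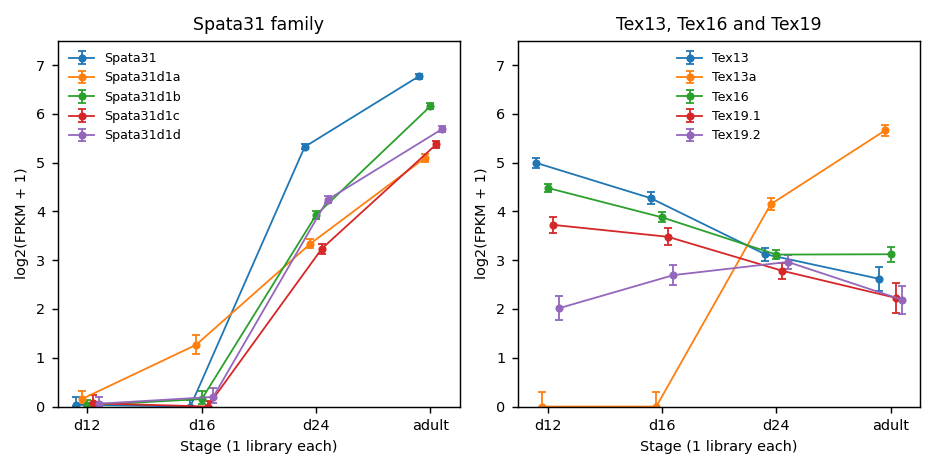
Level as log2(FPKM + 1) at the 4 stages, with 1 library each, of the 5 Spata31 genes on the left and of Tex13, Tex13a, Tex16, Tex19.1 and Tex19.2 on the right; bars are exact 95% Poisson intervals, counting error only. The Spata31 genes climb after d16, with Spata31d1a alone above 1 at d16, while Tex13a crosses Tex13 and Tex16 between d16 and d24.

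All 5 Spata31 genes were higher at d24 than at d16 and again in the adult, past a fold of 2. With the equal sum the adult step of Spata31 went from 1.45 to 0.98 and that of Spata31d1d from 1.45 to 0.999 in log2(FPKM + 1), so that 3 of the 5 passed. Spata31 (64917406 to 64923195, plus strand) stood at 0.0247, 0, 39.1 and 108.4 FPKM, at least 526-fold over 3 fragments at d16 and then 2.77-fold (2.63 to 2.92). Spata31d1b stood at 0.0187, 0.112, 14.2 and 70.5 FPKM, Spata31d1c at 0.0471, 0, 8.43 and 40.5 FPKM, and Spata31d1d at 0.0417, 0.146, 17.9 and 50.5 FPKM. From d24 to the adult they increased 4.96-fold (4.64 to 5.30), 4.80-fold (4.35 to 5.29) and 2.82-fold (2.63 to 3.03). The first 2 of these intervals overlap and lie above those of Spata31 and Spata31d1d.

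Spata31d1a differed from the rest at d16. It stood at 0.112, 1.40, 9.12 and 33.1 FPKM, and its 75 fragments at d16, after 6 at d12, gave a 12.5-fold (5.49 to 35.2) increase. At d16 it was at 15.4% of its d24 level, while the other 4 genes were at 0.818% or less. Spata31d1a and Spata31d1b lie next to each other (59700083 to 59706197, minus strand, and 59712284 to 59719289, plus strand). Their transcripts were 96.8% identical over 46.9% of Spata31d1a, and 24.9% of the 50-base stretches of Spata31d1b occur in Spata31d1a, so their values are uncertain to the extent that fragments were split between them. Spata31d1b had 6 fragments at d16.

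Of the 12 genes known from many cell types, 1, 4 and 2 were higher and 0 lower over the 3 steps (higher among all genes 5.15%, 14.8% and 6.14%). Tex2, a lipid transfer protein of the endoplasmic reticulum, was the one higher at d16 and stood at 8.63, 24.9, 106.3 and 156.3 FPKM. Spata7, a protein of the photoreceptor connecting cilium, stood at 2.91, 5.01, 48.7 and 179.8 FPKM and was higher at both later steps. Spata2l was also higher at both, at 0.872, 0.639, 3.29 and 7.92 FPKM. Tex261, an adaptor for cargo export from the endoplasmic reticulum, stood at 7.36, 7.15, 16.4 and 16.4 FPKM and was 2.29-fold (1.89 to 2.80) higher at d24. On the log2(FPKM + 1) scale this difference of 1.09 went to 0.56 with the equal sum and 0.68 with the upper quartile, under the fold of 2 in both. The adult step of Spata2l, at 1.06, likewise went to 0.71 and 0.89.

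The remaining 8 did not pass a fold of 2 on the log2(FPKM + 1) scale at any step. Tex10, a nuclear protein of ribosome assembly, stood at 33.0, 35.0, 46.0 and 53.0 FPKM. Tex264, a receptor for the breakdown of endoplasmic reticulum, stood at 8.89, 13.7, 19.8 and 21.4 FPKM, Tex9 at 13.5, 23.6, 29.8 and 31.5 FPKM, and Tex30 at 51.8, 85.6, 73.7 and 80.8 FPKM. Spata13 stood at 3.41, 2.78, 1.93 and 1.73 FPKM.

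Within the pairs of related names among these 12, the levels were unequal. Spata5, an ATPase of ribosome maturation, stood at 152.9, 134.8, 136.5 and 126.7 FPKM, the highest member of all at d12. Spata5l1, a related ATPase that acts with it, stood at 0.423, 0.787, 0.207 and 0.0849 FPKM, on 7, 13, 6 and 1 fragments. Without the pseudocount it was 3.81-fold (1.35 to 12.2) lower at d24 than at d16. Spata2, an adaptor between the deubiquitinase CYLD and the linear ubiquitin ligase, stood at 3.82, 3.70, 3.26 and 2.75 FPKM. Spata2l was below Spata2 at d12 and d16, close to it at d24 and above it in the adult.

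Among the 8 measured genes of the sperm head, tail, mitochondria and surface, 5 were higher at d16 (all genes 5.15%), 7 at d24 (all genes 14.8%) and 3 in the adult (all genes 6.14%), with median differences of 1.40, 2.95 and 0.87. The exception at d24 was Tex101, a surface protein of germ cells needed to process sperm ADAM3. It stood at 38.9, 95.3, 82.2 and 49.8 FPKM, 2.45-fold (2.21 to 2.72) higher at d16 and 1.65-fold (1.49 to 1.83) lower in the adult than at d24. Tex38, a membrane protein needed to shape the sperm head, stood at 0.195, 0.293, 29.8 and 53.9 FPKM.

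The promoter windows of the members were searched on both strands for 4 motifs of factors known in meiotic and later germ cells. The cAMP response element TGACGTCA was in 1 of 56 windows (1.79%, all windows 1.79%), that of Spata7. Its part TGACGT, which the full element contains, was in 12.5% of member windows and 7.51% of all. The MYB motif GGCNGTT was in 12.5% and 12.1%. The motif GTTGCCA, part of the X-box bound by RFX factors, was in 7.14% and 4.38%, in the windows of Spata31d1a, Spata33, Spata4 and Tex33. The match of Tex33 is shown because this gene had the largest difference of any Tex gene at a step, with the motif in capitals as its reverse complement on the gene's strand.
Tex33, GRCm38.p6, chr15:78395918-78395974, minus strand: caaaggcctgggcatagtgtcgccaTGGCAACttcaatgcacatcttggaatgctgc
The match begins 37 bases before the start.

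No member had a near copy elsewhere, taken as 95% identity over 80% of the transcript. Exons of Spata1, Spata2, Spata2l, Tex10 and Tex9 overlap exons of a gene on the opposite strand, by at most 264 bases (Tex9 and Mns1), and none overlaps an exon on the same strand. The libraries were made with a kit that keeps the strand.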

How the data were processed

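Total RNA of testis tissue was made into strand-specific paired-end libraries, 1 per stage, and sequenced. The authors deposited FPKM values of 23983 genes. According to the study's methods, TopHat2 2.1.0, running Bowtie 1.1.2 and given RefSeq genes, placed the pairs on GRCm38/mm10 with 1 alignment kept for each, and the authors ran Cuffdiff of Cufflinks 2.2.1 with correction for multiply mapped reads and for bias, but not for effective length. The scaling between libraries is not given in the sources used here.

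Samples were grouped by the age in their labels. FPKM values were used as deposited, without a filter, and log2 values had a pseudocount of 1 FPKM. Replicates were absent, so no test was run. The value of 1 fragment was found from genes with 1 curated RefSeq transcript, where 91.4% to 92.2% of values up to 20 fragments were whole within 0.05, and members with several transcripts were included where lengths differed at most 1.1-fold. For the other 17 members no fragment number was used. RefSeq promoters, transcripts and coordinates (GRCm38.p6) were matched to 52 members by symbol and to Tex13 and Tex40 by synonym. Similar transcripts were found with blastn 2.17.0. Other steps used python 3.11.15, numpy 2.4.6, pandas 2.3.3, scipy 1.17.1 and matplotlib 3.10.9. The value of 1 fragment, the calls at a fold of 2 and the Poisson intervals were tested on simulated data.

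The members, role lists, markers and motifs were chosen with earlier results of these data known. Genes were named by rule: the 6 highest in each group by stage, the 5 largest rises and falls past a fold of 2 at each step, paralog sets, genes with a known role and X-linked genes. Others named (such as Spata1, Spata17, Spata20, Tex9, Tex22, Tex29 and Tex30) were chosen after their values were seen. Alternatives were a pseudocount of 0.1 FPKM, a mean of at least 1 FPKM, a fold of 4, 2 rescalings of the libraries, no minimum at the highest stage, leaving out near copies and, added after seeing the data, those for the threshold of 2 FPKM.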

Additional observations from a re-analysis of the deposited data

How the results depend on the processing

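No paired analysis was possible because each stage has 1 library and no result comes from a test, and for the same reason no library could be left out. Of the 78 changes of members past a fold of 2, none turned in direction in 234 recalculations, and 13 fell under the fold: 10 when every library had an equal FPKM sum, 3 with the upper quartile and 0 with a pseudocount of 0.1 FPKM. The equal sum shifted the median difference of genes averaging 1 FPKM or more from 0.00, 0.11 and -0.02 to -0.11, -0.45 and -0.45, and the upper quartile to -0.13, -0.27 and -0.15. The members' median went to 0.00, 2.35 and 0.57, and to 0.00, 2.46 and 0.84. With the equal sum, 32 members were highest in the adult, 6 at d16 and 6 at d24, 5 were lower at d24 than at d16, 3 were lower in the adult than at d24, 5 first reached 2 FPKM at d16 and 1 never did. With the upper quartile, 37 were highest in the adult, 4 at d16, and 4 were lower at d24 than at d16. The members that left the adult stage were Tex10, Tex261, Tex264 and Tex9 under both, and Spata1, Spata16, Spata17, Tex22 and Tex40 with the equal sum. Tex14 and Tex19.2, the 2 members highest at d24 as deposited, moved to d12 and d16, in that order, under both. With the upper quartile the 2 highest at d24 were Tex261 and Tex264 instead. With the pseudocount of 0.1 FPKM, 3 were lower at d16 than at d12 and 2 lower at d24 than at d16. A fold of 4 left 7 higher at d16 than at d12, 0 lower at d24 and 7 higher in the adult than at d24. A threshold of 1 FPKM put 5 members first at d16. A threshold of 5 FPKM put 6 first at d16, 1 first in the adult and left 4 never reaching it. A minimum mean of 1 FPKM and no minimum at the highest stage moved none of these counts by over 1.5 times. No member has a near copy, so leaving out near copies removed nothing. Calls at the adult step that were lost with the equal sum were those of Spata24, Spata2l, Spata31, Spata31d1d, Spata6, Spata9, Tex24, Tex26 and Tex36, and those of Spata2l and Tex24 were lost with the upper quartile too. At d24 the call of Tex261 was lost under both. Depth limits the early values: at d12 and d16 most members that first reached 2 FPKM at d24 rest on a few fragments. The spread between animals is unknown at each stage.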

Other observations

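Another 11 genes that current RefSeq names Spata or Tex are listed in the table under other symbols, and so did not meet the rule on symbols. They were looked at after the members' values were seen. All 11 were highest in adult testis (all genes 23.4%) and under 2 FPKM at d12 and d16. At d24, 10 first reached 2 FPKM (all genes 6.3%), and Tex52 did in the adult (all genes 1.98%). From d16 to d24, 10 were higher past a fold of 2 (all genes 14.8%), and from d24 to the adult all 11 (all genes 6.14%). The ratio of adult to d24 ran from 2.28 to 7.87 with a median of 4.72, and the adult level from 5.96 to 294.0 FPKM with a median of 57.9 FPKM. Spata46 (listed as 1700015E13Rik), a protein of the sperm head, stood at 0.336, 0.561, 111.9 and 280.6 FPKM at d12, d16, d24 and in the adult. Tex48 (1700018C11Rik) stood at 0.119, 0, 58.4 and 294.0 FPKM, and Tex44 (1700019O17Rik) at 0.0464, 0, 7.22 and 53.1 FPKM. The X-linked Tex13c1 (Gm362) stood at 0.0712, 0.0357, 15.7 and 57.9 FPKM, values that came up at d24 as those of Tex13a did.

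The 6 elongating spermatid markers were all higher at d12 than at d16, though at low level. Prm1 stood at 3.39 and 1.20 FPKM and Tnp2 at 1.74 and 0.145 FPKM in these 2 libraries. Spata20, chosen after its values were seen, differed in the same direction. It had 9 fragments and 1, and its ratio of d12 to d16 was 8.98 with an interval from 1.24 to 394. The 26 members that first reached 2 FPKM at d24 did not share this direction. Of these, 10 were higher at d12 than at d16, 10 lower and 6 at 0 in both. The cause of the higher marker values at d12 was not tested.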
